A study of Homo sapiens with 6 samples.

Results

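The genes described here are 38 components and feedback targets of the Wnt pathway, taken by symbol from a table of read counts for 35554 genes. Of the 38, 37 had a row in the table, WIF1 being not analysed here, and 32 passed the filter on low counts that left 19711 genes to be tested. They were compared between parental LNCaP cells (n = 3) and enzalutamide-resistant LNCaP cells, called LNCaP-enzaR (n = 3), by RNA sequencing. LNCaP is an established line from a metastasis of human prostate cancer, and enzalutamide is a drug that blocks the androgen receptor. The study derived the resistant line from its parent by long exposure to enzalutamide and kept it on a lower dose thereafter. Both lines were grown in T25 flasks to about 70% confluency, and the labels give no word on drug in the medium at harvest. A single resistant line was sampled in 3 flasks, so that p-values measure the spread between flasks and the comparison is between these particular lines.

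Wnt proteins are secreted lipid-modified ligands. PORCN, an acyltransferase of the endoplasmic reticulum, adds the lipid, and WLS carries the ligand to the cell surface, where it binds a Frizzled receptor together with LRP5 or LRP6, or with ROR1 or ROR2 in signalling that does not use β-catenin. In the β-catenin branch, Dishevelled proteins relay the signal to a destruction complex of APC, AXIN and GSK3B, β-catenin is no longer degraded, and TCF/LEF factors switch on targets that include negative regulators such as AXIN2, RNF43, ZNRF3 and NKD1. In prostate cancer the pathway is known for crosstalk with androgen receptor signalling, and WNT5A is a ligand often studied in resistance to androgen blockade.

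Libraries held 77759122 to 98616465 counts, and 3 counts, taken as the floor, equalled 0.0302 to 0.0382 CPM (counts scaled to 1000000 per TMM-scaled library). Of 10 luminal prostate markers, all were tested, 6 were lower and 1 was higher in LNCaP-enzaR, with summed levels of 5169 to 5295 CPM in parental and 3143 to 3442 CPM in LNCaP-enzaR libraries. Of 10 fibroblast and stromal markers, 8 had a row and 6 were tested, 4 were higher and 1 was lower, at summed levels of 19.5 to 22.4 and 22.7 to 24.7 CPM. Of these, LUM (30 to 170 counts per library), PDGFRB (50 to 176), ACTA2 (142 to 853) and VIM (212 to 612) were higher and COL1A1 (358 to 1184) was lower in LNCaP-enzaR, COL3A1 held 94 to 133 counts, and DCN and THY1 did not pass the filter. Leukocyte markers summed to at most 0.243 CPM, basal markers to at most 1.71 CPM, with KRT5 and TP63 at 0 in parental libraries, and endothelial markers to at most 6.10 CPM, with CDH5 at 0 in parental libraries and VWF holding most of the sum. Within a line, the counts of LNCaP-enzaR replicate 1 differed from those of replicates 2 and 3 by a chi-square of 35.6 and 28.2 per degree of freedom, against 5.56 to 9.06 for the other pairs, and each tested member kept its call without replicate 1. Mitochondrial transcripts took 6.72% to 7.06% of parental and 14.7% to 15.5% of LNCaP-enzaR counts. Their part in the results, and that of the markers, was not tested beyond the fit without mitochondrial genes, which called as many members in each direction.

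Genes were taken as past the threshold if their adjusted p was at most 0.05 and their levels differed at least 1.5-fold. By this rule 13 of the 32 tested members changed between the lines, 8 of them higher and 5 lower in LNCaP-enzaR. WNT5A, WNT10A, PORCN, WLS, ROR2, GSK3B, LEF1 and TCF7L1 rose, and FZD1, FZD2, FZD5, LGR4 and RNF43 fell. Of all genes tested, 42.7% were past the threshold, 23.3% as higher and 19.5% as lower, so that the share of members past it (40.6%) is near the background. An adjusted p of at most 0.05 at any fold was found for 22 of the 32 members and for 66.3% of all tested genes. The median log2 fold change was 0.076 over the tested members and 0.013 over all tested genes. The libraries of the lines did not overlap for 22 of the 32 members, against 70.6% of all tested genes. ROR2 and TCF7L1 passed the filter only through the LNCaP-enzaR libraries and therefore had to differ. Among the other 30 members, each averaging 1 CPM or more, 11 were past the threshold, against 42.3% of the 13585 genes at that level. Each log2 fold change is that of LNCaP-enzaR relative to parental cells, with its standard error (SE), and library values are listed in the order of replicates 1, 2 and 3. In these bulk samples, fewer cells that express a gene and less RNA per cell cannot be told apart.

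**Figure D1:**
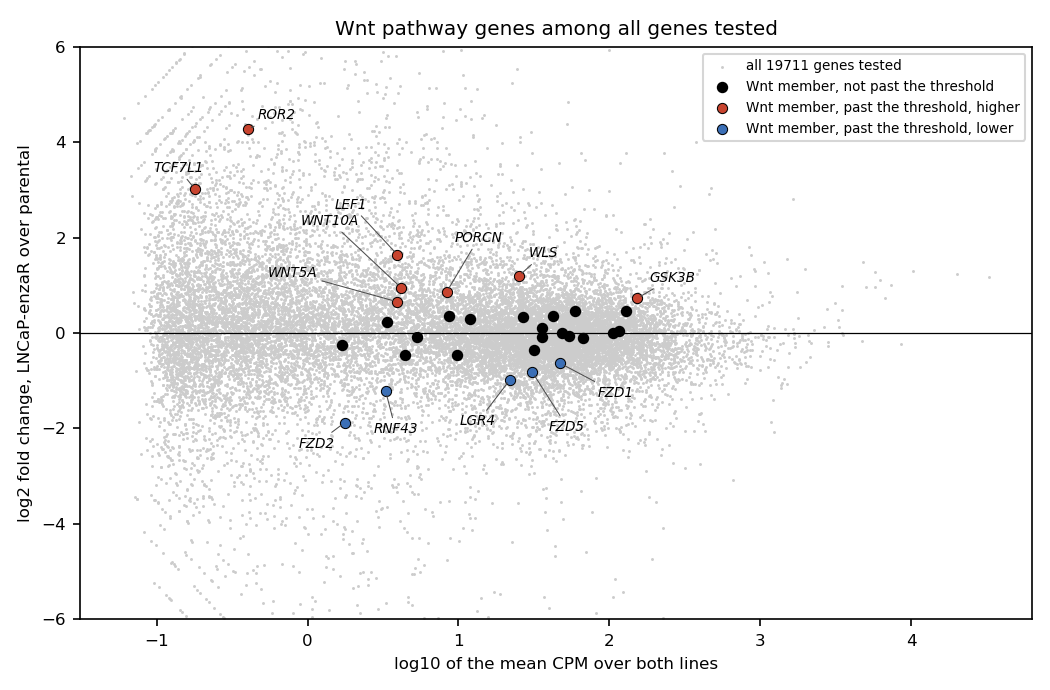
Log2 fold change of LNCaP-enzaR over parental (vertical axis) against the log10 of the mean CPM over both lines (horizontal axis) for all 19711 genes tested (grey) and the 32 tested Wnt members (black where not past the threshold, red where past it and higher, blue where past it and lower). The 13 members past the threshold are named and lie within the cloud of all genes, of which 253 fall outside the vertical axis limits of −6 and 6.

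Sequences before the gene starts were read from RefSeq (GRCh38.p14), which gave 33 starts for 25 of the 38 members, the others being named only. The 250 bases before each start were searched on both strands for CTTTGAT and CTTTGAA, letters that TCF/LEF factors are known to bind. Of the 33 windows, 1 held such a match (3.03%), against 5.94% of 35116 windows over all genes, and none of the 16 windows of 12 members past the threshold did. These are not all plain upstream sequence, since 10 of the 33 windows, and 8 of those 16, lie partly or wholly in an exon of the same gene in GENCODE v44, LEF1 and a window of RNF43 among them. A missing match says only that these letters are not in this window. The windows of ROR2, the member with the highest fold change, of FZD5 and LGR4, which were lower, and of DKK1, the member with the match, are given 5′ to 3′ on the strand of the gene, with the match in capitals. The ROR2 window lies at chr9:91950229-91950478 (minus strand), the FZD5 window at chr2:207769907-207770156 (minus strand), the LGR4 window at chr11:27472791-27473040 (minus strand) and the DKK1 window at chr10:52314031-52314280 (plus strand). G and C made up 78.0% of the bases for ROR2, 76.8% for FZD5, 62.0% for LGR4 and 62.8% for DKK1, with a median of 65.2% over the members and 58.0% over all windows. The match in the DKK1 window starts 95 bases before the gene. None of the 4 windows holds an exon of its own gene, but the whole DKK1 window and 167 bases of the LGR4 window lie in exons of the antisense genes PRKG1-AS1 and LGR4-AS1.
ROR2: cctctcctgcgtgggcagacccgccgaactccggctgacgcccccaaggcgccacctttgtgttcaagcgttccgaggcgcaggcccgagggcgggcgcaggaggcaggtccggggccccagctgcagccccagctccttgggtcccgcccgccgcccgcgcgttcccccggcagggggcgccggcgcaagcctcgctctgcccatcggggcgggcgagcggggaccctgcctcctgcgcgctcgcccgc
FZD5: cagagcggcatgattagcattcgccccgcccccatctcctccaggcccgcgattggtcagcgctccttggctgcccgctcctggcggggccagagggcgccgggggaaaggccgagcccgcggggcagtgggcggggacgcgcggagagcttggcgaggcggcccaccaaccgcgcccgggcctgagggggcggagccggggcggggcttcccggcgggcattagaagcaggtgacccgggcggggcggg
LGR4: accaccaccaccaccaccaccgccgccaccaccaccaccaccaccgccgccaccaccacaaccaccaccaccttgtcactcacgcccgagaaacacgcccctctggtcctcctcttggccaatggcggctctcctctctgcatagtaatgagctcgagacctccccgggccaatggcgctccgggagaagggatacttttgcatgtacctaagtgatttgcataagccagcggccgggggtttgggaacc
DKK1: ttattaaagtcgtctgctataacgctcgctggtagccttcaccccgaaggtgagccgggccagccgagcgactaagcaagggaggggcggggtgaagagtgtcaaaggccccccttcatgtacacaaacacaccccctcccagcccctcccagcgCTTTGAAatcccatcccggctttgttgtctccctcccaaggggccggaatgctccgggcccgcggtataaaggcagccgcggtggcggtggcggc

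Among the ligands, 2 of 3 tested genes rose and none fell. WNT10A, a ligand of the β-catenin branch (ENSG00000135925.9, chromosome 2, 218880852 to 218899581, GRCh38), stood at 2.69, 3.06 and 2.72 CPM in parental and 6.43, 4.30 and 5.69 CPM in LNCaP-enzaR replicates. Each LNCaP-enzaR library lay above every parental library, with replicate 2 the lowest, and the gene was 1.94-fold higher (log2 fold change 0.95, SE 0.148, edgeR quasi-likelihood test with Benjamini-Hochberg adjustment over all tested genes, adjusted p = 5.02e-05). WNT5A, which acts mainly through Frizzled and ROR receptors without β-catenin (ENSG00000114251.15, chromosome 3, 55465715 to 55490539), went from 2.99, 2.83 and 3.36 CPM to 4.75, 4.59 and 5.09 CPM. The groups did not overlap, and the fold of 1.57 lay just past the limit (log2 fold change 0.65, SE 0.119, edgeR adjusted p = 0.000224). WNT7B, the most abundant ligand of the list per length in both lines, read 36.5, 36.2 and 38.1 CPM in parental and 52.0, 45.4 and 43.96 CPM in LNCaP-enzaR libraries. Its libraries did not overlap either, but the log2 fold change of 0.35 (95% interval 0.20 to 0.50) was under the fold limit. WNT11, a ligand mostly linked to signalling without β-catenin, held at most 9 counts in any library and did not pass the filter.

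Levels of different genes were compared per kilobase of exon. Summed over the 4 ligands, the level was 8.55, 8.57 and 8.93 CPM per kilobase in parental and 13.1, 11.1 and 11.3 CPM per kilobase in LNCaP-enzaR libraries (two-sided exact permutation test, p = 0.10, the smallest that 3 against 3 libraries allow). WNT7B made up 83.7% ± 0.551 of that sum in parental and 78.3% ± 2.23 in LNCaP-enzaR cells, and WNT10A 11.1% ± 0.936 and 15.8% ± 2.14 (SD, n = 3 each). In both lines the order was therefore WNT7B, WNT10A and WNT5A, which were separated by more than their spread. None of the 19 shares tested in the Wnt gene families passed adjustment, since the smallest possible exact p of 0.10 gives an adjusted p of 0.127.

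Both genes of ligand acylation and export rose. WLS, the carrier that takes Wnt proteins to the cell surface (ENSG00000116729.14, chromosome 1, 68098473 to 68233120), read 14.2, 14.8 and 16.8 CPM in parental libraries and 37.2, 32.0 and 35.4 CPM in LNCaP-enzaR. It was 2.29-fold higher, with a wide gap between the lines (log2 fold change 1.19, SE 0.0827, edgeR adjusted p = 1.15e-08). PORCN, the acyltransferase that makes Wnt proteins competent for secretion (ENSG00000102312.24, chromosome X, 48508959 to 48520814), read 5.81, 5.56 and 6.39 CPM and 12.2, 10.9 and 9.11 CPM. The lowest LNCaP-enzaR library, replicate 3, was still above the highest parental library, and the gene was 1.82-fold higher (log2 fold change 0.86, SE 0.113, edgeR adjusted p = 1.04e-05).

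**Figure D2:**
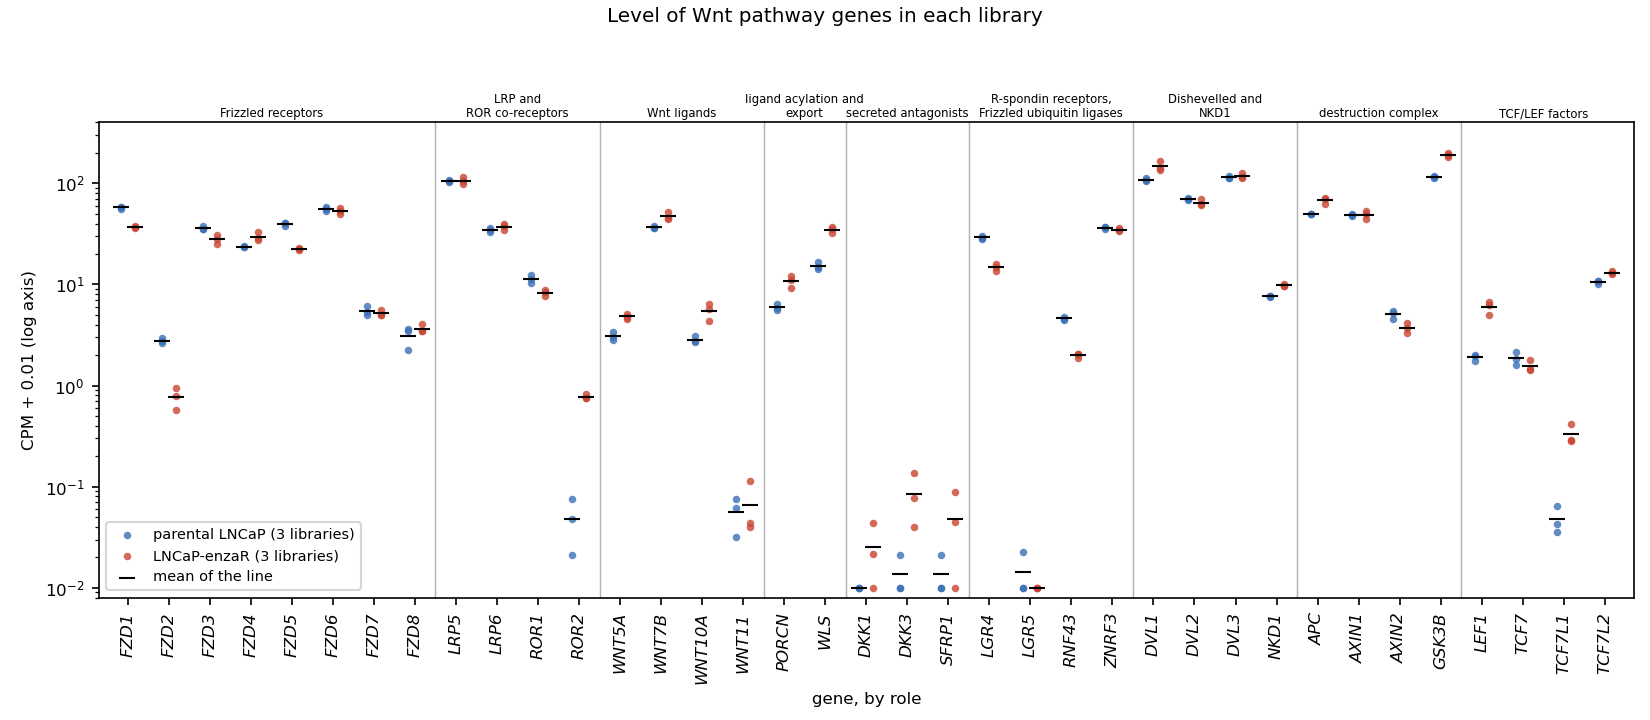
CPM plus 0.01 (vertical log axis) for the 37 Wnt genes with a row in the table, ordered by role, in each parental (blue) and LNCaP-enzaR (red) library, with the mean of each line as a black bar. WLS, PORCN, WNT10A, LEF1 and ROR2 have every red point above every blue point, FZD1, FZD2, FZD5, LGR4 and RNF43 the opposite, and the antagonists DKK1, DKK3 and SFRP1 lie near the floor in both lines.

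Frizzled receptors are membrane-spanning proteins that bind Wnt ligands. Of the 8 among the members, 3 fell (2 with upper-quartile scaling), none rose and 5 were not past the threshold. FZD5 (ENSG00000163251.4, chromosome 2, 207762598 to 207769906) stood at 40.1, 37.9 and 40.6 CPM in parental and 22.7, 22.5 and 21.8 CPM in LNCaP-enzaR replicates. Replicates were tight in both lines and the receptor was 1.77-fold lower (log2 fold change −0.83, SE 0.0639, edgeR adjusted p = 3.87e-08). FZD1 (ENSG00000157240.4, chromosome 7, 91264433 to 91271326) read 55.9, 58.7 and 58.3 CPM and 37.5, 36.5 and 37.2 CPM, a 1.55-fold decrease without overlap (log2 fold change −0.64, SE 0.0584, edgeR adjusted p = 2.42e-07). With upper-quartile scaling, which raised the median of all genes by 0.10, FZD1 reached −0.54 and was under the fold limit. FZD2 (ENSG00000180340.7, chromosome 17, 44557484 to 44561262) had the largest decrease among the tested members, from 2.95, 2.76 and 2.60 CPM to 0.776, 0.928 and 0.564 CPM. It was 3.67-fold lower (log2 fold change −1.88, SE 0.196, edgeR adjusted p = 9.86e-07), on 204 to 273 parental and 56 to 82 LNCaP-enzaR counts.

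The remaining Frizzled genes moved less than 1.5-fold and in both directions. FZD3 (−0.36, edgeR adjusted p = 0.000795) and FZD4 (0.34, adjusted p = 0.00101) had log2 fold changes of opposite sign, with no overlap between the lines. Of FZD4, 18.9% of the exonic bases lie in exons of PRSS23, so that its reads may be shared. FZD6, the most abundant Frizzled gene per length, was at 13.7 ± 0.625 CPM per kilobase in parental and 13.1 ± 0.891 in LNCaP-enzaR cells (SD, n = 3 each). Its log2 fold change was −0.063 with a 95% interval of −0.21 to 0.080, which leaves out a change of 1.5-fold in either direction. For FZD7 the interval was −0.32 to 0.17 and for FZD8 −0.13 to 0.59, and the lines overlapped for both. The wide interval of FZD8 goes with parental replicate 3, which stood at 2.24 CPM against 3.60 and 3.42 CPM in the other parental libraries.

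Summed per kilobase over the 8 receptors, the Frizzled level was 36.8, 35.5 and 36.1 CPM per kilobase in parental and 28.7, 31.4 and 29.7 in LNCaP-enzaR libraries, so that all LNCaP-enzaR libraries were below all parental ones (two-sided exact permutation test, p = 0.10). The shares of FZD6 and FZD4 were higher in each LNCaP-enzaR library. FZD6 made up 37.9% ± 1.06 of the sum in parental and 43.7% ± 1.14 in LNCaP-enzaR cells, FZD4 8.81% ± 0.175 and 13.4% ± 0.591. The shares of FZD1 (23.1% ± 1.01 and 18.01% ± 1.08) and FZD5 (15.5% ± 0.396 and 10.6% ± 0.544) were lower in each (SD, n = 3, exact p = 0.10 for each of the 4 shares). Among these 8 receptors, the order per length in parental cells was FZD6, FZD1, FZD5, FZD4 and FZD3, whereas in LNCaP-enzaR FZD4 stood above FZD5. FZD9, which is not a member and not in the sum, stood at 1.82 ± 0.363 CPM per kilobase in parental cells. In LNCaP-enzaR it stood at 3.18 ± 0.455, beside 3.17 ± 0.0651 for FZD5 and 2.02 ± 0.200 for FZD3. Of the 8, FZD7, FZD8 and FZD2 were the lowest in both lines, and the parental levels of FZD8 and FZD2 did not differ beyond their spread.

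Among the co-receptors, ROR2 rose and the 3 others were not past the threshold. ROR2, a receptor tyrosine kinase that binds WNT5A (ENSG00000169071.15, chromosome 9, 91563091 to 91950228), held 6, 1 and 3 counts in the parental libraries and 64, 65 and 80 in LNCaP-enzaR, which is 0.0648, 0.0110 and 0.0382 CPM and 0.742, 0.736 and 0.806 CPM. All 3 LNCaP-enzaR libraries were far above all parental ones, which were near the floor (log2 fold change 4.27, SE 0.483, edgeR adjusted p = 2.01e-06). Since ROR2 passed the filter only through the LNCaP-enzaR libraries, it had to differ, and its p-value adds no support. The size rests on few parental counts, since the log2 fold change was 4.92 without parental replicate 1 and 3.82 without parental replicate 2. ROR1, its relative, read 11.4, 10.2 and 12.4 CPM in parental and 8.41, 8.71 and 7.59 CPM in LNCaP-enzaR libraries. The groups did not overlap, at a log2 fold change of −0.46 (95% interval −0.67 to −0.25, edgeR adjusted p = 0.000704) that was under the fold limit. In LNCaP-enzaR, ROR2 was at 0.129 ± 0.00664 CPM per kilobase, against 1.23 ± 0.0863 for ROR1 (SD, n = 3 each). LRP5 and LRP6, the co-receptors of the β-catenin branch, overlapped between the lines. LRP5 read 104, 106 and 109 CPM and 116, 98.7 and 104 CPM, with a 95% interval of its log2 fold change of −0.14 to 0.14. For LRP6 the interval was −0.038 to 0.26.

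The secreted antagonists were at or near the floor in both lines. DKK1, which blocks LRP5 and LRP6, held 0 counts in each parental library and at most 3 in a LNCaP-enzaR library. SFRP1, a soluble Frizzled decoy, held at most 1 and 7 counts. DKK3, a distant relative of DKK1, held at most 1 and 11, and 47.5% of its exonic bases lie in exons of USP47. None of these passed the filter, and a count of 0 allows up to 3 counts, 0.0324 to 0.0382 CPM in parental libraries. DKK3 was past the threshold, as higher, in DESeq2 and without the filter, and no difference in DKK1 or SFRP1 was detectable at this depth.

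Of the 4 members among the R-spondin receptors and the ubiquitin ligases that act on Frizzled receptors, 2 fell, 1 was not past the threshold and 1, LGR5, was not tested. LGR4, a receptor for R-spondins, which protect Frizzled receptors from removal (ENSG00000205213.14, chromosome 11, 27365961 to 27472790), read 30.4, 29.0 and 28.1 CPM in parental and 13.7, 15.8 and 14.9 CPM in LNCaP-enzaR libraries. It was 1.97-fold lower (log2 fold change −0.98, SE 0.0750, edgeR adjusted p = 3.54e-08). RNF43, a ubiquitin ligase that removes Frizzled receptors and is itself a β-catenin target (ENSG00000108375.13, chromosome 17, 58353676 to 58417595), read 4.54, 4.47 and 4.799 CPM and 2.05, 2.04 and 1.84 CPM, a 2.33-fold decrease without overlap (log2 fold change −1.22, SE 0.124, edgeR adjusted p = 7.49e-07). Exons of TSPOAP1-AS1 and another gene cover 69.0% of its exonic bases, and the strand setting of the counting is not stated, so that its level is uncertain. ZNRF3, the ligase most like RNF43, was more abundant at 36.7, 35.4 and 37.2 CPM and 33.4, 35.8 and 34.6 CPM. Its lines overlapped and the 95% interval of its log2 fold change was −0.21 to 0.060. LGR5, another R-spondin receptor and a known stem cell marker, reached at most 1 count.

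In the cytoplasm, 1 of 8 members was past the threshold. GSK3B, the kinase that marks β-catenin for degradation and acts in many other pathways (ENSG00000082701.17, chromosome 3, 119821321 to 120094994), read 118, 115 and 112 CPM in parental and 180.2, 199 and 192 CPM in LNCaP-enzaR libraries. It was 1.66-fold higher (log2 fold change 0.73, SE 0.0562, edgeR adjusted p = 3.83e-08). APC, the scaffold of the same complex, went from 49.5, 49.5 and 50.0 CPM to 63.0, 70.7 and 71.0 CPM, without overlap but under the fold limit (log2 fold change 0.46, 95% interval 0.32 to 0.59, edgeR adjusted p = 1.62e-05). AXIN1, the constitutive scaffold, had an interval of −0.15 to 0.14 around a log2 fold change of −0.0052. AXIN2, its inducible counterpart and a widely used readout of β-catenin activity, read 5.20, 5.51 and 4.58 CPM in parental and 3.33, 4.13 and 3.72 CPM in LNCaP-enzaR replicates. The lines did not overlap, and the log2 fold change of −0.45 (edgeR adjusted p = 0.00479) was under the fold limit. Exons of another gene cover 25.3% of its exonic bases.

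The Dishevelled genes, which relay the signal from Frizzled to the complex, were among the most abundant members per length. DVL1 read 106, 107 and 113 CPM in parental and 168, 137 and 143 CPM in LNCaP-enzaR libraries, higher in each of the latter and under the fold limit (log2 fold change 0.46, 95% interval 0.30 to 0.62, edgeR adjusted p = 5.87e-05). DVL2 (95% interval −0.25 to 0.023) and DVL3 (−0.087 to 0.16) overlapped between the lines. DVL1 accordingly made up 47.2% ± 0.328 of the summed Dishevelled level per kilobase in parental and 55.5% ± 1.23 in LNCaP-enzaR cells (SD, n = 3 each, two-sided exact permutation test, p = 0.10). The order per length was DVL1, DVL3 and DVL2 in both lines. NKD1, which binds Dishevelled and is a feedback target, went from 7.75, 7.42 and 7.73 CPM to 10.01, 9.64 and 9.65 CPM. Its log2 fold change of 0.36 (edgeR adjusted p = 0.00176) was under the limit and opposite in sign to that of AXIN2.

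Of the 4 TCF/LEF factors, the DNA-binding partners of β-catenin, 2 rose and 2 were not past the threshold. LEF1 (ENSG00000138795.10, chromosome 4, 108047545 to 108168956), which is both an effector and a target of the pathway, read 1.74, 1.97 and 2.00 CPM in parental and 4.96, 6.62 and 6.27 CPM in LNCaP-enzaR libraries. It was 3.13-fold higher, the largest rise among members averaging 1 CPM or more (log2 fold change 1.65, SE 0.139, edgeR adjusted p = 1.03e-07). TCF7L1, mostly a repressor (ENSG00000152284.5, chromosome 2, 85133392 to 85310387), held 5, 3 and 2 parental and 24, 36 and 27 LNCaP-enzaR counts, or 0.0540, 0.0330 and 0.0255 CPM and 0.278, 0.408 and 0.272 CPM. It was higher in each LNCaP-enzaR library, at a level close to the floor (log2 fold change 3.02, SE 0.574, edgeR adjusted p = 0.000279). Like ROR2, TCF7L1 passed the filter only through the LNCaP-enzaR libraries and had to differ, so that its p-value adds no support. TCF7L2, the most abundant of the 4, read 10.1, 10.9 and 10.9 CPM and 12.7, 13.7 and 12.9 CPM, and its log2 fold change of 0.30 (edgeR adjusted p = 0.00428) was under the fold limit. TCF7 read 1.82, 2.13 and 1.58 CPM in parental and 1.76, 1.43 and 1.45 CPM in LNCaP-enzaR libraries, with overlap and a 95% interval of −0.64 to 0.13.

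The factors summed to 2.02, 2.21 and 2.15 CPM per kilobase in parental and 3.04, 3.50 and 3.29 CPM per kilobase in LNCaP-enzaR libraries, without overlap (two-sided exact permutation test, p = 0.10). LEF1 took 16.1, 16.6 and 17.3% of that sum in parental and 30.4, 35.3 and 35.5% in LNCaP-enzaR replicates. The share of TCF7L2 was 74.4, 73.4 and 75.1% and 61.8, 58.1 and 58.3%, so that TCF7L2 stayed first and LEF1 second in both lines while the gap between them narrowed. TCF7 made up 8.58% ± 1.19 and 4.71% ± 0.903 (SD, n = 3 each).

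**Figure D3:**
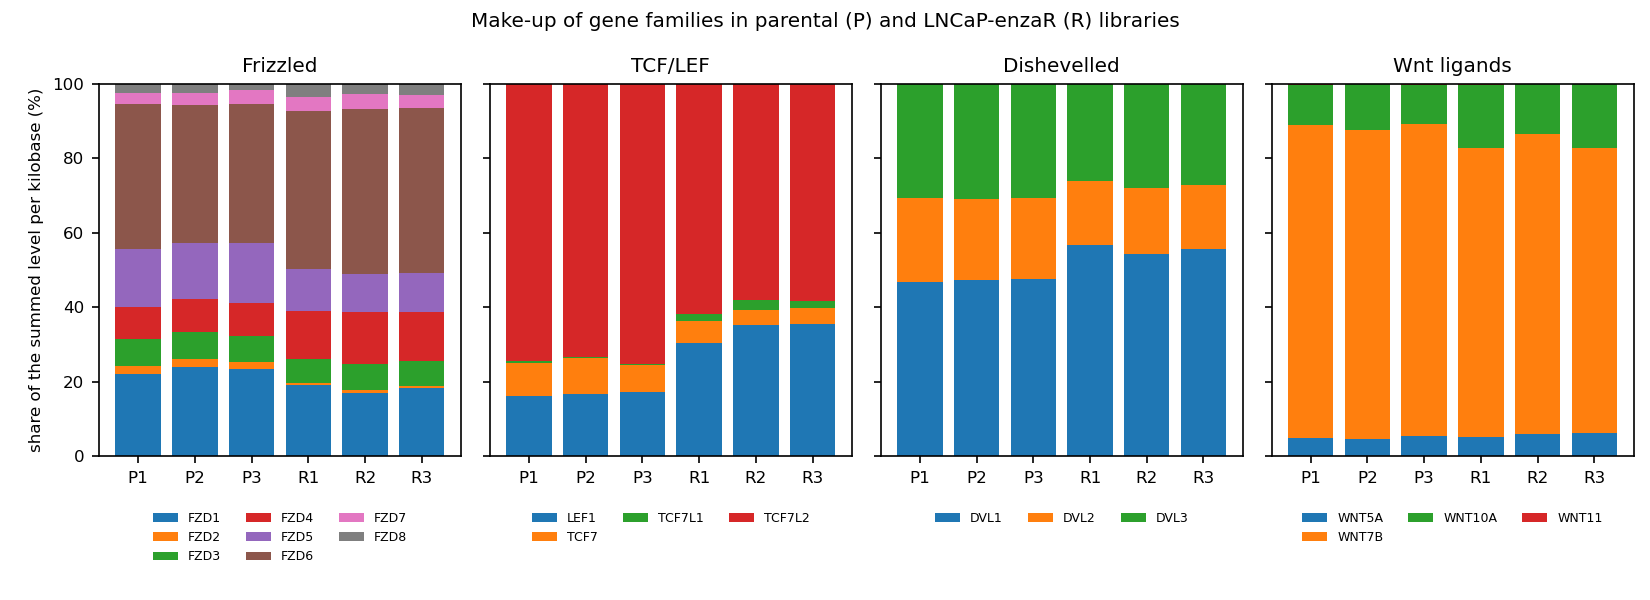
Share of each gene in the summed CPM per kilobase of its family (vertical axis, percent) in the 3 parental (P1 to P3) and 3 LNCaP-enzaR (R1 to R3) libraries, for the Frizzled, TCF/LEF, Dishevelled and Wnt ligand genes. Only members are summed, so that FZD9 and the ligands outside the members are left out. LEF1 and DVL1 take a larger share in each R library than in any P library, and TCF7L2, FZD1, FZD5 and WNT7B a smaller one.

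**Figure D4:**
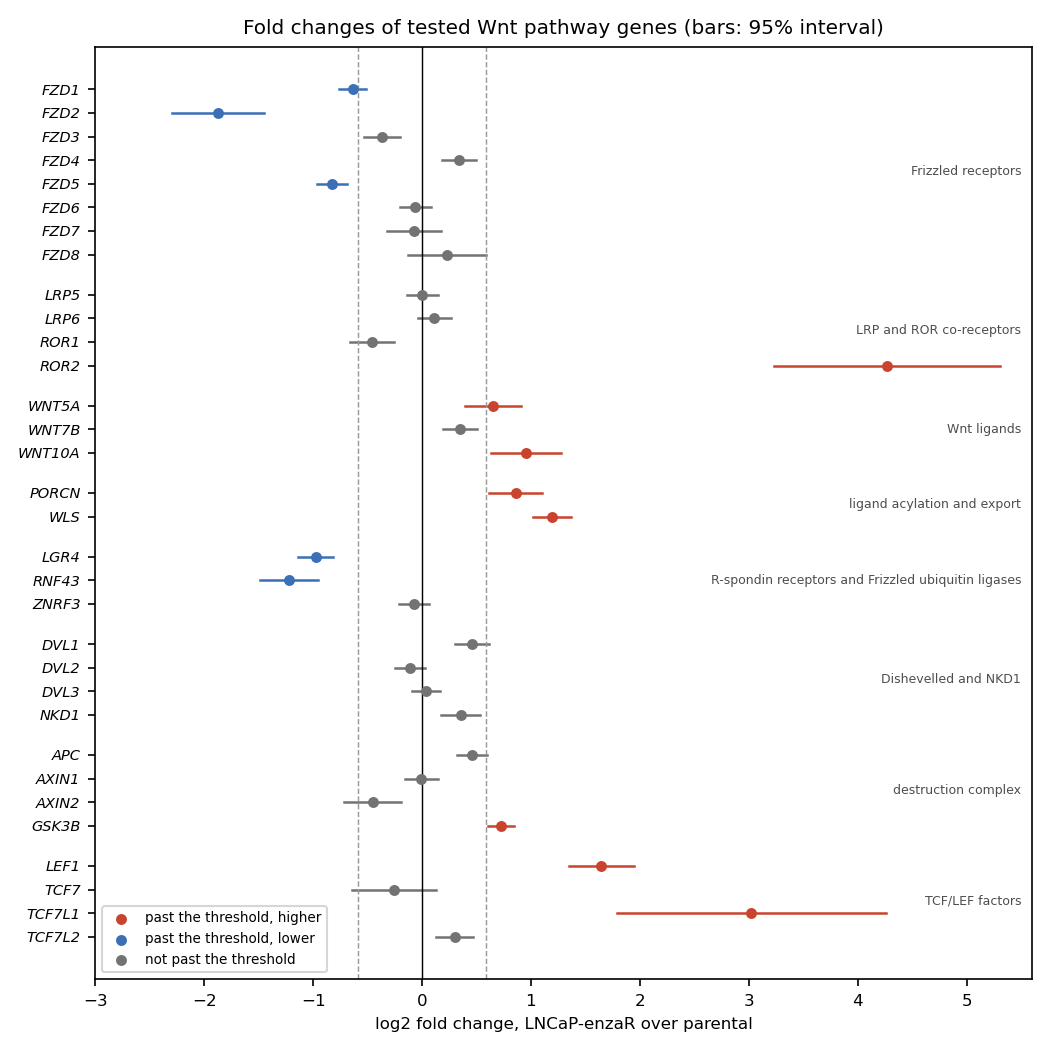
Log2 fold change of LNCaP-enzaR over parental (horizontal axis) for the 32 tested Wnt genes by role, with bars for the 95% interval and dashed lines at a fold of 1.5 in either direction. The 8 higher genes (red) include both genes of ligand export, the 5 lower genes (blue) include FZD1, FZD2 and FZD5, and FZD1 alone drops under the fold limit if libraries are scaled by upper quartile.

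Genes known as targets of β-catenin were followed as a list of 16, which shares AXIN2, LEF1, TCF7, NKD1, RNF43, ZNRF3, LGR5 and DKK1 with the members. Of 12 that passed the filter, 2 rose, 2 fell and 8 were not past the threshold, which is 33.3% called against 42.7% of all genes. Their median log2 fold change was −0.14. APCDD1, a membrane protein that inhibits Wnt signalling, rose from 2.71, 3.84 and 3.06 CPM to 193, 199 and 196 CPM (log2 fold change 5.93, SE 0.102, edgeR adjusted p = 8.97e-15). It was 61.1-fold higher, more than any member, and with LEF1 it makes up the list's increases. TNFRSF19, a receptor of the TNF family, fell from 23.7, 22.01 and 22.1 CPM to 3.74, 4.86 and 5.43 CPM (log2 fold change −2.27, SE 0.114, edgeR adjusted p = 3.42e-10), as did RNF43 among the members. CCND1, which encodes cyclin D1, and MYC are targets of many pathways and were abundant. Their log2 fold changes of −0.49 (95% interval −0.61 to −0.38) and 0.22 (0.11 to 0.33) had opposite signs and were both under the fold limit. ZNRF3, TCF7, NOTUM and CD44 overlapped between the lines, and SP5, ASCL2, LGR5 and DKK1 did not pass the filter. CD44, on at most 13 parental and 25 LNCaP-enzaR counts, had a log2 fold change of 1.46 (95% interval 0.10 to 2.82). Its edgeR adjusted p of 0.0532 lay just over the limit, so that it is not shown to be unchanged. But CD44 passed the filter only through the LNCaP-enzaR libraries, so that neither this p-value nor the interval adds support for a rise. CCND1, MYC, NOTUM, CD44, SP5 and ASCL2 were outside the rule for named genes and were chosen after their values were seen.

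**Figure D5:**
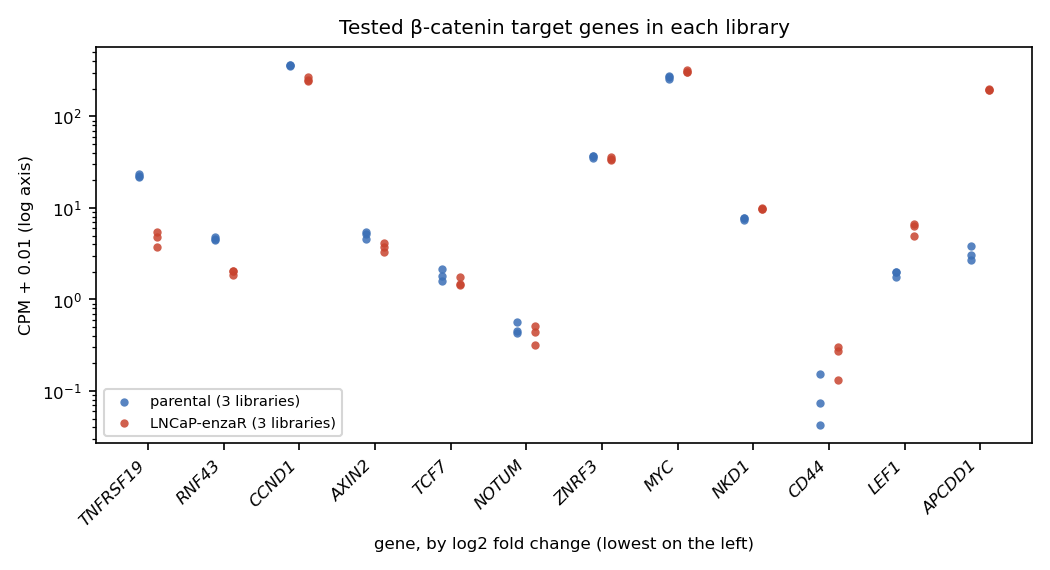
CPM plus 0.01 (vertical log axis) of the 12 tested β-catenin target genes in each parental (blue) and LNCaP-enzaR (red) library, ordered from the lowest to the highest log2 fold change. Red points lie far below blue ones for TNFRSF19 and far above for APCDD1, while ZNRF3, TCF7, NOTUM and CD44 overlap.

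A further list of 79 Wnt pathway genes, written by role and not by how the genes moved, had 72 genes in the table and 55 that passed the filter. Of these, 20 rose and 7 fell, which is 49.1% called against 42.7% of all genes, with a median log2 fold change of 0.22. CXXC4, WNT9B and WNT8B passed the filter only through the line where they were higher and therefore had to differ. Of the genes averaging 1 CPM or more, 22 of 46 were past the threshold, against 42.3% of all genes at that level. CTNNB1, which encodes β-catenin itself, stood at 355 ± 3.62 CPM in parental and 347 ± 5.64 CPM in LNCaP-enzaR cells (SD, n = 3 each). Its 95% interval of −0.14 to 0.072 on the log2 scale leaves out a change of 1.5-fold.

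Of the 7 other Wnt ligands tested, 4 rose and 2 fell. WNT9A went from 1.03, 1.18 and 1.21 CPM to 15.1, 12.8 and 13.9 CPM (log2 fold change 3.62, SE 0.117, edgeR adjusted p = 4.01e-12). WNT2B (2.29) and WNT4 (0.60) rose as well, from 0.511 ± 0.136 and 1.39 ± 0.252 CPM. Exons of ST7L cover 21.5% of the exonic bases of WNT2B, so that its reads may be shared. WNT3, which fell (−1.18), averaged under 1 CPM over the libraries. WNT8B held 64, 48 and 41 parental and 5, 6 and 7 LNCaP-enzaR counts and WNT9B 7, 7 and 10 and 137, 135 and 94, so that the other fall and the fourth rise are fixed by the filter. These 3 were named after their values were seen. Among secreted or membrane-bound modulators, 2 of 7 rose and none fell. RSPO4, an R-spondin that acts through LGR receptors, rose from 0.248, 0.539 and 0.369 CPM to 6.19, 6.67 and 5.33 CPM (log2 fold change 3.97, SE 0.210, edgeR adjusted p = 6.04e-10), while LGR4, a receptor for R-spondins, was lower as given above. APCDD1 is the other. Of 6 further receptors, 2 rose and 2 fell. PTK7 and RYK, co-receptors of signalling without β-catenin, fell by 1.08 and 0.83 on the log2 scale, from 49.7 ± 3.20 to 23.6 ± 2.27 CPM and from 52.2 ± 3.16 to 29.3 ± 2.88 CPM (SD, n = 3 each). ADGRA2, a co-activator of WNT7A and WNT7B signalling, rose from 0.744 ± 0.185 to 3.56 ± 0.285 CPM (2.26), and FZD9 (0.81), a further Frizzled receptor, was the other increase. Exons of BRF2 cover 23.0% of the exonic bases of ADGRA2, so that its reads may be shared.

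Of 14 other cytoplasmic components, 5 rose and 1 fell. DACT3 (2.03), an antagonist of Dishevelled, NKD2 (1.39), a relative of NKD1, and APC2 (1.86), a relative of APC, were the named increases, at 4.92 ± 0.360, 6.97 ± 1.23 and 15.4 ± 2.14 CPM in LNCaP-enzaR (SD, n = 3 each). The others past the threshold were CSNK1D, CXXC4 and AMER1. CSNK1D (0.60), a casein kinase, lay just past the limit at a fold of 1.52. CXXC4 held at most 2 counts in a parental and 48 in a LNCaP-enzaR library, and AMER1 (−1.06), a partner of APC, was lower. Among 11 further nuclear components, corepressors included, 3 rose and none fell. The increases were in corepressors of the TLE family, with TLE1 going from 48.4 ± 1.35 to 127 ± 4.40 CPM (1.39) and TLE2 from 13.7 ± 0.344 to 24.0 ± 1.92 CPM (0.80). TLE4 (1.84, SE 0.359) was the third, on 13 to 32 parental and 59 to 97 LNCaP-enzaR counts, with means under 1 CPM in both lines. TLE3 (−0.26) and TLE5 (0.22) were under the fold limit. Planar polarity genes went both ways, 4 higher and 2 lower of 10 tested. RHOU (1.34), a GTPase, and CELSR1 (1.02), a large cadherin, rose to 141 ± 4.32 and 57.1 ± 3.51 CPM. VANGL2 fell by 0.71 on the log2 scale, to 1.45 ± 0.287 CPM. CELSR2 (0.66), PRICKLE2 (0.63) and VANGL1 (−0.70) were the others past the threshold. Exons of other genes cover 25.3% of the exonic bases of PRICKLE2, so that its reads may be shared. FZD9, CSNK1D, CXXC4, AMER1, TLE3, TLE4, TLE5, CELSR2, PRICKLE2 and VANGL1 were named after their values were seen.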

How the data were processed

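RNA was sequenced from 3 flasks of each line. The authors trimmed reads with Cutadapt, aligned them to GRCh38 with STAR and a GENCODE annotation, and counted them per gene with featureCounts. The deposited values are raw counts per gene, not normalized, and the strand setting and the handling of reads that map to several places are not given in the sources used here. Reads of overlapping genes are therefore uncertain.

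After filterByExpr and TMM scaling, the lines were compared in edgeR 4.0.16 (R 4.3.3) with the robust quasi-likelihood test without covariates and Benjamini-Hochberg adjustment over all 19711 tested genes. The limits (adjusted p 0.05, fold 1.5) are those of the study, which used DESeq2. DESeq2 1.42.0 served as an alternative. Group and replicate came from the sample titles. The floor of 3 counts covers counting error only. Coordinates are those of the deposited table. Exon lengths and overlaps came from GENCODE v44, a later annotation of the same build that matched 99.8% of the genes by identifier and gave 91.4% of those the same coordinates. Shares of a family were compared by two-sided exact permutation tests.

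Counts were simulated from these libraries for 19601 genes, and 200 genes of at least 1 CPM were changed. The edgeR test recovered 99% of the 2-fold and 100% of the 4-fold changes and called 5 unchanged genes. The simulation does not cover changes near 1.5-fold or changed genes under 1 CPM. With so few genes changed, it does not test the scaling either. Of the genes listed beside the members, those named are up to 3 per list with the largest change among those past the threshold that average 1 CPM or more and do not overlap between lines, plus CTNNB1. Names outside this rule are marked as such in the text. Members, lists and tests were chosen with earlier results of these data known. Alternatives were another test (DESeq2), other scaling (RLE, library totals, upper quartile), other filters (none, or 10 counts or more per library), a replicate block, each library left out in turn, other fold limits and, for the shares, counts not divided by length. A fit without mitochondrial genes was chosen after seeing the data.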

Additional observations from a re-analysis of the deposited data

How the results depend on the processing

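The count of members past the threshold (13, 8 higher and 5 lower) was 11 to 14 with the other test, scalings and filters (DKK3 being the additional call in DESeq2 and without the filter), and 13, 8 and 5 in each fit that left out 1 library. With at least 10 counts in every library ROR2 and TCF7L1 were not tested. The β-catenin target genes past the threshold numbered 4 (2 higher) in the main fit and 5 (3 higher) with upper-quartile scaling. They also numbered 5 (3 higher) without parental replicate 2 and without LNCaP-enzaR replicate 3. The other Wnt pathway genes past the threshold numbered 27 (20 higher) in the main fit. They numbered 25 (18 higher) without LNCaP-enzaR replicate 1 and with library totals, and 24 (18 higher) with 10 counts or more per library. In DESeq2 and without the filter they numbered 30 (22 higher). Only the fold limit moved the counts by more than 1.5 times. With no minimum fold, 22 members (14 higher, 8 lower), 14 lower other Wnt pathway genes, 8 β-catenin target genes (4 higher, 4 lower) and 13074 genes in all (6467 lower) were past the threshold. With a fold of at least 2, 6 members (4 higher, 2 lower), 4 lower other Wnt pathway genes and 5561 genes in all (2326 lower) were.

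Upper-quartile scaling raised the log2 fold change of the median gene by 0.10. It put FZD1 under the fold limit (−0.54, adjusted p = 1.70e-06) and turned the sign of FZD6 (0.037), FZD7 (0.024), ZNRF3 (0.027) and AXIN1 (0.10), each of which lies within that shift of 0. AXIN1 also turned under DESeq2 (0.0037), RLE size factors (0.0040) and the stricter filter (0.017), and LRP5 with library totals (−0.032). Leaving out 1 library turned AXIN1 (−0.056 to 0.061 over the 6 fits), LRP5 (−0.058 to 0.057 over the 6 fits), FZD7 (−0.15 to 0.011 over the 6 fits) and DVL3 (−0.0054 to 0.075 over the 6 fits). The genes that turned sign were not past the threshold in any fit, and the cause was not tested. The other 25 tested members kept direction and side of the threshold in each alternative that tested them, and ROR2 was the called member whose size moved most.

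The share of FZD6 among Frizzled genes rose by 5.88 percentage points per length and by 4.70 in shares of counts, and that of TCF7L2 among TCF/LEF factors changed by −15.0 and −11.1 percentage points, since genes of unequal length then weigh differently.

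Replicate numbers were shared by the lines but did not pair the libraries. Deviations of same-numbered libraries had correlations of −0.0652 to −0.00041 over the tested genes, which are not independent. A replicate block gave 8212 calls over all genes, 8174 of them shared with the fit without it, and 13 member calls (8 higher and 5 lower).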

Other observations

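The position of the members was set beside the change of their surroundings, as a description. For each tested member the median log2 fold change was taken over the other tested genes with a mean of at least 1 CPM that start within 5 Mb. LGR4 fell in a region whose 18 such genes had a median of −0.72, and FZD5 in a region of 29 genes with a median of −0.39. WNT10A rose, and the 50 genes around it had a median of −0.65, and FZD7, at −0.076 itself, lay among 49 genes with a median of −0.70. FZD6, at −0.063, lay among 31 genes with a median of 0.87, and TCF7L1 among 39 genes with a median of 0.60. For ROR2 (44 genes) and GSK3B (42 genes) the medians were −0.18 and −0.18, opposite in sign to the genes themselves. The genes in such a window are not independent, the members were named after these values were seen, and no test was made.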
